A study of Mus musculus with 4 samples.

Results

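The Arp2/3 complex is the set of proteins that starts new actin filaments as branches on the sides of existing ones. Its subunits were taken as the 10 genes Actr2, Actr3, Actr3b, Arpc1a, Arpc1b, Arpc2, Arpc3, Arpc4, Arpc5 and Arpc5l, out of 23284 genes listed by the authors, and all 10 were found by symbol. Messenger RNA had been sequenced from mature neutrophils of mouse bone marrow, sorted as Gr1 high, 7/4 high and side scatter (SSC) high. There were 2 Srf KO samples and 2 WT samples. Srf encodes serum response factor (SRF), which recognises a DNA element called the CArG box and is known for activating genes of the actin cytoskeleton. How Srf was deleted, in which cells, and the strain and age of the mice are not given in the sources used here, and nothing says that the samples of a genotype came from separate animals.

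In the complex, the actin-related proteins ARP2 and ARP3 sit side by side and act as the first subunits of the new filament. The ARPC subunits hold them and attach the branch to the mother filament. The complex is inactive until proteins of the WASP and WAVE families bind it, and in neutrophils it builds the branched actin of the leading edge during crawling and of the phagocytic cup. Some positions in the complex can be filled by either of a pair of paralogs: ARPC1 by Arpc1a or Arpc1b, ARPC5 by Arpc5 or Arpc5l, and ARP3 by Actr3 or Actr3b. In work with human proteins, complexes that hold ARPC1B and ARPC5L promote actin assembly better than those with ARPC1A and ARPC5.

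Each genotype has 1 pooled value per gene, in FPKM (fragments scaled to transcript length in kilobases and to sequencing depth), so no value per sample is given, the depth is unknown and no spread between the samples could be computed. Log2 folds are Srf KO over WT, and the ± after a fold is the standard error (SE) implied by the authors' fold and test statistic. A gene is called where the authors' adjusted p is at most 0.05. How far that test reflects the spread between the samples is not known. As a check on the labels, Srf stood at 0.439 FPKM in Srf KO and 13.7 FPKM in WT in the authors' deposited table, a log2 fold of -4.97 ± 0.27 (SE) with an adjusted p listed as 0. Of the neutrophil markers, Mmp8, Mmp9, Retnlg, Cxcr2 and Csf3r were tested, while 6 others, S100a8 and S100a9 among them, were left untested for too many reads. In bulk RNA, fewer cells of a type and less RNA per cell cannot be told apart.

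Most of the abundant subunit genes were lower in Srf KO, and the scarcer paralogs were not. Of 8 tested members the authors' deposited table called 4 lower (Arpc1b, Arpc2, Actr2 and Arpc5) and 1 higher (Arpc5l), while Arpc1a, Arpc3 and Arpc4 were not called. Over all 12634 tested genes the deposited table called 35.5%, with 17.8% lower and 17.7% higher. The count of members called lower depends on the threshold and on trends in the folds. At an adjusted p of at most 0.01, or with a minimum change of 1.5-fold, it was 1 of 8 (Arpc1b), against 13.1% and 14.8% of all tested genes called lower at those settings, so the count is then no higher than the background. The median log2 fold of the 8 tested members was -0.41, against 0.08 over the 12552 genes with a fold. Folds in these data also moved with level. At the mean FPKM of the tested members, the running median of all folds lay between -0.20 and -0.08. With this trend on mean FPKM subtracted, the median of the tested members was -0.28. Of the 8, 2 were then called lower, against 17.5% of all tested genes. All folds of tested members were modest, from -0.67 to 0.58. Actr3 and Actr3b carry no test in the deposited table, Actr3 because its fit failed and Actr3b because its reads were too few.

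**Figure D1:**
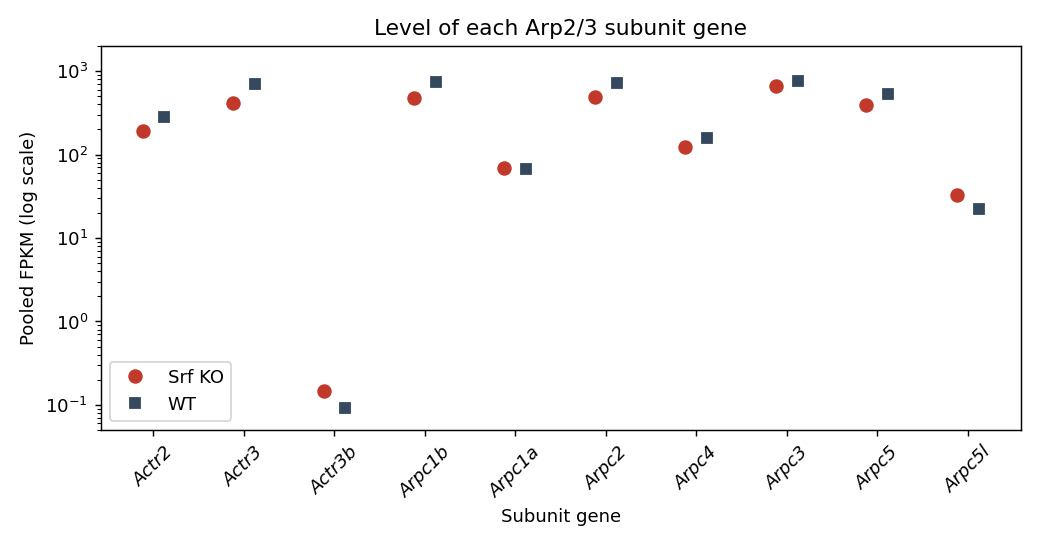
Pooled FPKM of each Arp2/3 subunit gene on a log axis, 1 point for Srf KO (red circles) and 1 for WT (blue squares), from the authors' deposited table. The 7 genes above 100 FPKM in both genotypes all have the Srf KO point below the WT point, and Arpc5l and Actr3b have it above.

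The subunit transcripts were abundant in these cells. In the authors' deposited table the order of levels in Srf KO was Arpc3 (664 FPKM), Arpc2 (492 FPKM), Arpc1b (472 FPKM), Actr3 (410 FPKM), Arpc5 (387 FPKM), Actr2 (193 FPKM), Arpc4 (123 FPKM), Arpc1a (68.9 FPKM), Arpc5l (33.2 FPKM) and Actr3b (0.147 FPKM). In WT the order in the deposited table was the same except that Arpc1b stood above Arpc2. By mean level, 6 of the members, Arpc3, Arpc1b, Arpc2, Actr3, Arpc5 and Actr2, lay at percentile 97.7 or above among tested genes, and Arpc5l lay at percentile 80.4. Without values per sample, neighbours in this order could not be tested against each other.

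Actr2 (ENSMUSG00000020152.7, mm10 chromosome 11, 20062304 to 20112951, minus strand) encodes ARP2. It stood at 193 FPKM in Srf KO and 284 FPKM in WT in the authors' deposited table, which is 68.1% of the WT level. The log2 fold in the deposited table was -0.55 ± 0.19 (SE), with an adjusted p of 0.0146, and the call ended with the trend of folds on mean FPKM subtracted (-0.42). Actr3 (ENSMUSG00000026341.16, chromosome 1, 125392905 to 125435727, minus strand) encodes ARP3, the partner of ARP2. It stood at 410 FPKM in Srf KO and 690 FPKM in WT in the authors' deposited table, a log2 ratio of -0.75 that has no test and no error. The ratio of Actr3 is thus larger than the fold of any tested member, but it cannot be set against any error. All 3 Actr3 isoforms in the deposited table failed too, and NM_001205386 held 99.8% of the Actr3 FPKM in Srf KO and 99.3% in WT. The coding sequence of Actr3 also matches 2 annotated pseudogenes at 95% identity or more, over up to 1255 bases, so its reads may be shared with them. Actr3b (ENSMUSG00000056367.14, chromosome 5, 25760026 to 25850341, plus strand), the paralog that can take the place of Actr3, was near 0 in both genotypes, at 0.147 FPKM in Srf KO and 0.0907 FPKM in WT in the deposited table.

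**Figure D2:**
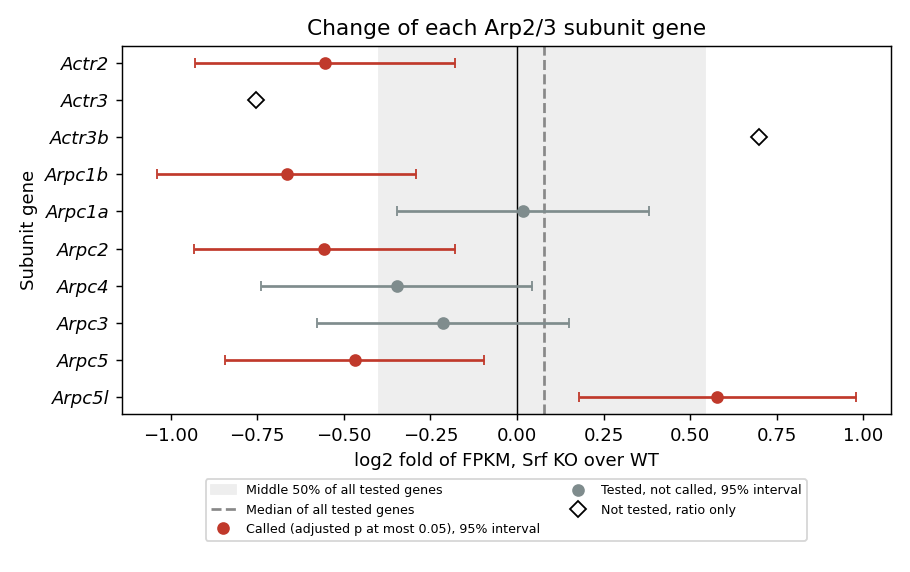
Log2 fold of FPKM, Srf KO over WT, of each subunit gene, with 95% intervals from the implied standard errors. Red points were called and grey points were tested but not called. Open diamonds (Actr3, -0.75, and Actr3b, 0.70) have a ratio but no test, and the grey band spans the 25th to 75th percentile of all genes with a fold, -0.40 to 0.54.

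Arpc1a and Arpc1b encode the ARPC1 subunit, a propeller-shaped protein that takes part in binding the activators. ARPC1B is the form that predominates in blood cells, and its loss in people causes an immune deficiency. Arpc1b (ENSMUSG00000029622.16, chromosome 5, 145114256 to 145128186, plus strand) stood at 472 FPKM in Srf KO and 748 FPKM in WT in the authors' deposited table. It was 63.1% of the WT level, a log2 fold of -0.67 ± 0.19 (SE) with an adjusted p of 0.00277 in the deposited table. That fold was the lowest of the tested subunits there, though no test compared it with those of Arpc2 and Actr2. Arpc1a (ENSMUSG00000029621.14, chromosome 5, 145083869 to 145108756, plus strand) lies 5499 bases upstream on the same strand. It stood at 68.9 FPKM in Srf KO and 68.0 FPKM in WT in the deposited table, a log2 fold of 0.02 ± 0.19 (SE), with a 95% interval of -0.35 to 0.38 and an adjusted p of 0.956.

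The difference between the folds of Arpc1b and Arpc1a was -0.68 ± 0.27 (SE) on the log2 scale, with a 95% interval of -1.20 to -0.16 that takes the errors as independent. Arpc1a thereby made up 12.7% of the summed FPKM of the pair in Srf KO and 8.34% in WT. Folds in these data moved with transcript length. The running median of all folds was 0.38 at the length of Arpc3 (899 bases), 0.25 at that of Arpc1a (1632 bases) and -0.02 at that of Arpc1b (3105 bases). With the trend on transcript length subtracted, the difference was -0.42 and its interval of -0.94 to 0.10 no longer excluded 0. That result rests on lengths of matched GENCODE M21 transcripts, which were not checked against the transcript models behind the authors' FPKM. The coding sequences of the pair are identical at 73.5% of 1101 aligned bases, with no identical run longer than 21 bases. One annotated pseudogene matches Arpc1b over 1116 bases at 95% identity or more, and no transcript of another gene does so for Arpc1a. Shorter matches of this kind, to 1 pseudogene each, exist for Arpc2 (510 bases) and Actr2 (262 bases).

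The promoters of this neighbouring pair, from RefSeq on GRCm38.p6, run from 250 bases before the start to 50 after it and are shown because the genes differ in their folds. Capitals mark matches on either strand to the GC box (GGGCGG), the CCAAT box (CCAAT), the PU box (GAGGAA), the TATA box (TATAAA), the ETS core (CGGAAG) or the CArG box, the site that SRF binds. The GC box is bound by SP1 family factors, and the ETS core by factors such as the ELK partners of SRF.
Arpc1b (chr5:145114006-145114305, plus strand): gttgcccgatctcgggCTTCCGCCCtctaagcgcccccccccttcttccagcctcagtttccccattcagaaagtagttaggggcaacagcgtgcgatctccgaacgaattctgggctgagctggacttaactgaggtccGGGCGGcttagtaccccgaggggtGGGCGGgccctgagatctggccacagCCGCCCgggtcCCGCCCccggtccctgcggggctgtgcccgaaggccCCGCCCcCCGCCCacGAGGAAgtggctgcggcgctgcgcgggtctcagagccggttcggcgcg
Arpc1a (chr5:145083619-145083918, plus strand): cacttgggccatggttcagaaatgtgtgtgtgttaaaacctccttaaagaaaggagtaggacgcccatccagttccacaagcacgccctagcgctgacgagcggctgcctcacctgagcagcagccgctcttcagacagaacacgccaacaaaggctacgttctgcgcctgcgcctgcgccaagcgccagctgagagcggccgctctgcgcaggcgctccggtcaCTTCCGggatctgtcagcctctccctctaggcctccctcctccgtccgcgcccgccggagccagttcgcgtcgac

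The Arpc1b window held 7 GC boxes, 1 PU box beginning at base 3 after the start and 1 ETS core, which overlaps the first GC box. The Arpc1a window held 1 ETS core and no other match. Neither window had a CArG box. Of all 32851 RefSeq promoter windows, 35.7% held a GC box, 28.3% a PU box, 37.4% a CCAAT box, 13.6% a TATA box, 16.9% an ETS core and 1.63% a CArG box. A promoter window was at hand for 8 members, all but Actr3b and Arpc5l. An ETS core, a motif picked after the windows had been read, was found in 7 of these 8, all but Arpc5, and a GC box in 6 of 8. A PU box was found in Arpc1b only, a CArG box in Arpc4 only and a TATA box in 0 of the 8. These are matches of letters in a short window, and nothing is drawn from them about binding.

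Arpc2 and Arpc4 encode the pair that forms the core of the complex and clamps the mother filament. Arpc2 (ENSMUSG00000006304.14, chromosome 1, 74236550 to 74268213, plus strand) stood at 492 FPKM in Srf KO and 724 FPKM in WT in the authors' deposited table, a log2 fold of -0.56 ± 0.19 (SE) with an adjusted p of 0.0145. With the trend on transcript length subtracted, the log2 fold of Arpc2 was -0.83, below that of Arpc1b (-0.65). Arpc4 (ENSMUSG00000079426.13, chromosome 6, plus strand, listed at 113378113 to 113414571, a locus shared with Ttll3) stood at 123 FPKM in Srf KO and 157 FPKM in WT in the deposited table. Its log2 fold of -0.35 ± 0.20 (SE) was not called, with an adjusted p of 0.164 and a 95% interval of -0.74 to 0.04. Arpc4 was thus the lowest of the single-copy subunits in both genotypes.

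Arpc4 is listed with 3 isoforms, of which only the full-length one was called. The folds of the other isoforms lay above 0 but were not called. In the deposited isoform table the full-length isoform NM_026552 stood at 97.6 FPKM in Srf KO and 148 FPKM in WT, a log2 fold of -0.60 ± 0.21 (SE) that was called, with an adjusted p of 0.0200 in the authors' test. Of 14766 tested isoforms, the deposited table called 27.2%, with 14.0% lower and 13.1% higher. The shorter isoform NM_001170486 was at 24.4 FPKM in Srf KO and 7.68 FPKM in WT in the deposited table. Its log2 fold of 1.67 ± 0.72 (SE) was not called, with an adjusted p of 0.0670. NM_026552 made up 79.1% of the Arpc4 FPKM in Srf KO and 94.6% in WT, and NM_001170486 made up 19.7% in Srf KO and 4.89% in WT. The difference between the isoforms was not tested, since their errors are not independent. The deposited table of coding sequences holds the same FPKM, folds and p-values for these isoforms, adjusted over a different number of features. It is therefore not a second measurement. The full-length form was called lower there in the authors' test, with an adjusted p of 0.0184, and the shorter one was not called, with an adjusted p of 0.0620. That table called 30.2% of its tested entries, with 15.8% lower and 14.4% higher. In the deposited table of start site groups, which called 31.2% (16.1% lower and 15.1% higher), each member had 1 group with the value of its gene.

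In GENCODE M21 the main transcript has 6 exons and 504 coding bases. NM_001170486 lacks exon 2 (113380726 to 113380844, 119 bases), starts its coding sequence in exon 4 and keeps 234 coding bases. NM_001170485, at 1.39 FPKM in Srf KO and 0.868 FPKM in WT in the deposited table, lacks exons 2 and 3. Its log2 fold of 0.68 ± 3.10 (SE) was not called in the authors' test, with an adjusted p of 0.927, and the error is too wide to give a direction. The junctions that tell these isoforms apart are given here with the last 12 bases of exon 1 in lower case and the first 18 bases of the next exon in capitals.
NM_026552, exon 1 to exon 2: gcgcccgcgatgACTGCCACTCTCCGCCCC
NM_001170486, exon 1 to exon 3: gcgcccgcgatgGAGTAGCAAAGAACTGCT
NM_001170485, exon 1 to exon 4: gcgcccgcgatgGCCGATGAAATTGAGAAG

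The isoforms also differ in the length of exon 6, which is 1678 bases in NM_026552 and 882 bases in NM_001170486, so their levels do not rest on the junctions alone. The last 1189 bases of Arpc4 overlap Ttll3, a tubulin ligase gene on the same strand. Ttll3 stood at 4.89 FPKM in Srf KO and 15.0 FPKM in WT in the deposited table, with a log2 fold of -1.62 ± 0.91 (SE) that was not called, with an adjusted p of 0.155. Its part in the Arpc4 values was not tested.

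Arpc4 is the member whose promoter window holds a CArG box, and the window is shown for that reason, with its CArG box and ETS core in capitals. The CArG box occupies the first 10 bases of the window, 250 bases before the start.
Arpc4 (chr6:113377863-113378162, plus strand, GRCm38.p6): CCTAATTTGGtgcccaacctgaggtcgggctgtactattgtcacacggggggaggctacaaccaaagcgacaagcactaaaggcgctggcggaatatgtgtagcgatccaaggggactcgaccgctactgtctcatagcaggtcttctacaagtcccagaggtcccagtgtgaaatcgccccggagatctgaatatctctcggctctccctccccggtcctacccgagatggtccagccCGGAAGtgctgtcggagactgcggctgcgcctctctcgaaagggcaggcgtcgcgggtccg

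Arpc3 (ENSMUSG00000029465.14, chromosome 5, 122391928 to 122406178, plus strand) encodes the subunit that sits next to ARP3. It was the most abundant member in both genotypes, at 664 FPKM in Srf KO and 770 FPKM in WT in the authors' deposited table. Its log2 fold of -0.21 ± 0.19 (SE) was not called in the deposited table, with an adjusted p of 0.385 and a 95% interval of -0.58 to 0.15. With the trend on transcript length subtracted, Arpc3 had a log2 fold of -0.60 and was called, with an adjusted p of 0.00687.

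Arpc5 and Arpc5l encode the ARPC5 subunit, which tethers ARP2 to the rest of the complex. They moved in opposite directions. Arpc5 (ENSMUSG00000008475.13, chromosome 1, 152766542 to 152775580, plus strand) stood at 387 FPKM in Srf KO and 536 FPKM in WT in the authors' deposited table, a log2 fold of -0.47 ± 0.19 (SE) with an adjusted p of 0.0416. The call is narrow, since the same value has an adjusted p of 0.0513 in the deposited isoform table, where more features were tested, and it also ended with the trend on mean FPKM subtracted (-0.38). Arpc5l (ENSMUSG00000026755.14, chromosome 2, 39008139 to 39015872, plus strand) stood at 33.2 FPKM in Srf KO and 22.2 FPKM in WT in the deposited table. Its log2 fold was 0.58 ± 0.20 (SE), with an adjusted p of 0.0168 in the authors' test. It was the only member called higher, and that call ended with the trend on transcript length subtracted, where its log2 fold was 0.30 and its adjusted p 0.268. Its annotated locus overlaps those of Rpl35 and Wdr38, and the library kit does not keep the strand.

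The difference between the folds of Arpc5l and Arpc5 was 1.05 ± 0.28 (SE) on the log2 scale, with a 95% interval of 0.50 to 1.59 that takes the errors as independent. Arpc5l made up 7.89% of the summed FPKM of the pair in Srf KO and 3.98% in WT, and Arpc5 was 11.7 times as abundant as Arpc5l in Srf KO and 24.1 times in WT. The coding sequences are identical at 71.3% of 450 aligned bases, with no identical run over 21 bases. For ARP3, Actr3b supplied 0.0360% of the pair in Srf KO and 0.0131% in WT.

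**Figure D3:**
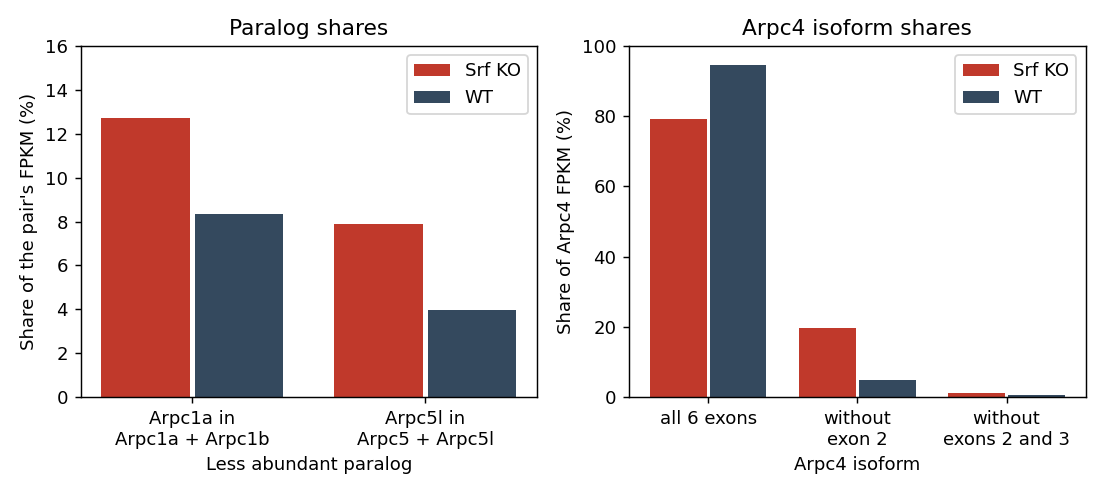
Left, share of the less abundant paralog in the summed FPKM of its pair, Srf KO (red) left of WT (blue). Right, share of each Arpc4 isoform in the Arpc4 FPKM. Bars start at 0 and have no error bars because each genotype has 1 pooled value. Arpc1a, Arpc5l and the Arpc4 isoform without exon 2 have larger shares in Srf KO.

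With paralogs summed, each of the 7 positions of the complex was lower in Srf KO by the authors' deposited FPKM. The sums ranged from 59.4% of the WT level for ARP3, which rests on the untested gene Actr3, to 86.2% for ARPC3. Arpc3 and Arpc4, the single genes of ARPC3 and ARPC4, were not called. The ARPC1 sum was 541 FPKM in Srf KO and 816 FPKM in WT, and the ARPC5 sum was 421 FPKM in Srf KO and 558 FPKM in WT. All members together came to 2844 FPKM in Srf KO and 4000 FPKM in WT, or 71.1% of the WT level. The highest position was 5.38 times the lowest in Srf KO and 5.20 times in WT. These sums have no error and were not tested.

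Genes that act on the complex were also counted. Among 28 tested regulators in 5 lists, the authors' deposited table called 12 lower (42.9%) and 3 higher (10.7%), against 17.8% lower and 17.7% higher over all tested genes. The median log2 fold of the tested regulators was -0.35, no further from 0 than the -0.41 of the tested subunits. The 3 called higher, Nckap1, Jmy and Cttn, were below 1 FPKM in both genotypes. All regulators called lower except Cyfip2 (-0.51) had folds further below 0 than that of any tested subunit (lowest -0.67). These genes were picked by their call, which itself asks for a large fold, and no test compared regulators with subunits.

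Among the WASP activators 4 genes were tested, of which 2 were called lower and 0 higher. For this list and those below, the shares over all tested genes are 17.8% lower and 17.7% higher. Was, the WASP gene of blood cells, stood at 62.3 FPKM in Srf KO and 119 FPKM in WT in the authors' deposited table, a log2 fold of -0.93 ± 0.18 (SE) with an adjusted p of 5.07e-06. Its stabilising partner Wipf1 was at 40.3 FPKM in Srf KO and 67.3 FPKM in WT in the deposited table (log2 fold -0.74 ± 0.18, SE). Of the WAVE regulatory complex, which drives branching at the leading edge, 4 of 9 were called lower and 1 higher. Wasf2, the WAVE2 gene, stood at 17.3 FPKM in Srf KO and 43.6 FPKM in WT (log2 fold -1.33 ± 0.19, SE) in the deposited table. Nckap1l, which encodes the blood cell subunit HEM1, stood at 82.7 FPKM in Srf KO and 163 FPKM in WT (-0.98 ± 0.19, SE) in the deposited table. Abi3 (-0.85 ± 0.22, SE) and Cyfip2 (-0.51 ± 0.19, SE), further subunits, were the others called lower in that table.

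Of 7 tested genes of the WASH, WHAMM and JMY activators, 2 were called lower and 1 higher. Over all tested genes 17.8% were called lower and 17.7% higher, and the median log2 fold of this list was -0.13. The one called higher, Jmy, stood at only 0.644 FPKM in Srf KO and 0.341 FPKM in WT. The WASH complex gene D6Wsu116e, listed by RefSeq as a synonym of Washc2, stood at 30.8 FPKM in Srf KO and 62.0 FPKM in WT (log2 fold -1.01 ± 0.18, SE) in the authors' deposited table. The other one called lower, A230046K03Rik, a synonym of Washc4 of the same complex, had a log2 fold of -0.71 ± 0.19 (SE) in that table.

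Of the 2 branch stabilisers, Hcls1, the cortactin relative of blood cells, stood at 182 FPKM in Srf KO and 366 FPKM in WT (log2 fold -1.01 ± 0.19, SE) in the authors' deposited table. Cttn, which encodes cortactin, was called higher there, at 0.896 FPKM in Srf KO and 0.237 FPKM in WT. Among inhibitors and debranching factors, 3 of 6 were called lower and 0 higher, all of them coronins. Coro1a stood at 479 FPKM in Srf KO and 1231 FPKM in WT (-1.36 ± 0.19, SE) in the deposited table. Coro1c (-0.76 ± 0.19, SE) and Coro1b (-0.71 ± 0.18, SE) were also called lower in that table. Gmfg, a debranching factor of blood cells, stood at 497 FPKM in Srf KO and 493 FPKM in WT (0.01 ± 0.19, SE) in the deposited table and was not called, with an adjusted p of 0.975.

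Formins and other linear nucleators start filaments without branches. Of 11 tested, 5 were called lower and 1 higher in the authors' deposited table, against 17.8% lower and 17.7% higher over all tested genes. The one called higher, Spire1, stood at only 0.672 FPKM in Srf KO and 0.152 FPKM in WT there. Fmnl1, a leukocyte formin gene, stood at 126 FPKM in Srf KO and 290 FPKM in WT (log2 fold -1.21 ± 0.19, SE) in the deposited table, and Diap1, the gene of the formin mDia1, stood at 34.2 FPKM in Srf KO and 113 FPKM in WT (-1.73 ± 0.18, SE) there. Fhod1 (-1.17 ± 0.20, SE) and Fmnl3 (-0.65 ± 0.19, SE) were also called lower in that table.

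**Figure D4:**
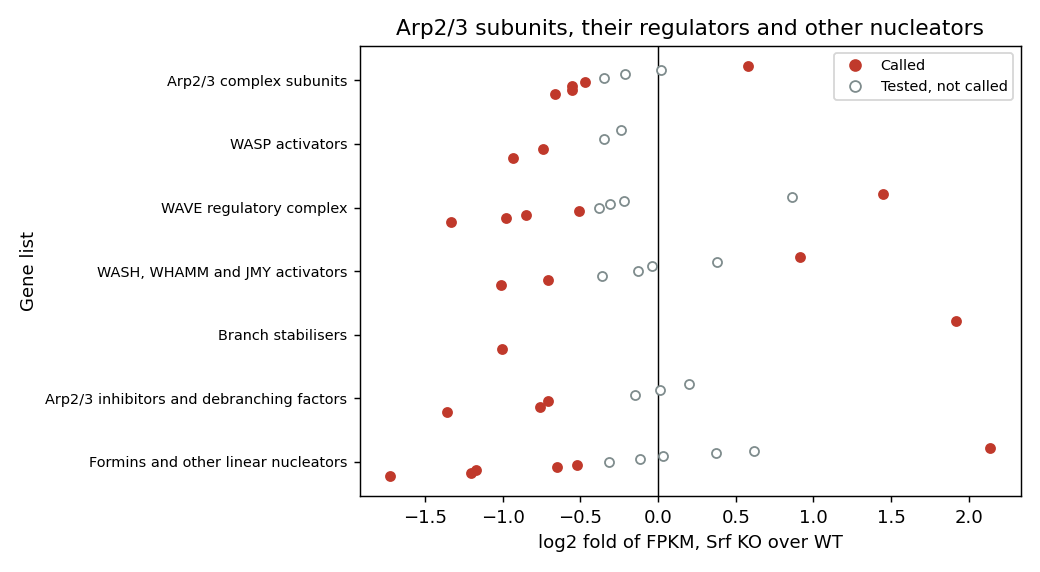
Log2 fold of FPKM, Srf KO over WT, of every tested gene in 7 lists, filled red where called and open where not. The tested subunits lie between -0.67 and 0.58. The regulators called lower, except Cyfip2, lie further to the left, but they are picked by their call. Over all tested regulators the median (-0.35) is not further left than that of the tested subunits (-0.41).

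Markers of other cell types differed between the genotypes as well. Over all tested genes, 17.7% were called higher and 17.8% lower. Of 37 tested markers in 7 lists the authors' deposited table called 28 higher and 2 lower (the macrophage list genes Emr1 and Csf1r). Their summed level was 512 FPKM in Srf KO and 300.1 FPKM in WT, with 0 tested markers listed at 0. By list, T and NK cell markers (6 of 7 called higher) summed to 49.2 FPKM in Srf KO and 20.8 FPKM in WT, and B cell markers (2 of 5) to 125 FPKM in Srf KO and 87.5 FPKM in WT. Erythroid markers (3 of 4) summed to 22.1 FPKM in Srf KO and 5.68 FPKM in WT, megakaryocyte and platelet markers (4 of 6) to 46.3 FPKM in Srf KO and 6.25 FPKM in WT, and stem and progenitor markers (4 of 4) to 23.1 FPKM in Srf KO and 11.6 FPKM in WT. Of the megakaryocyte and platelet sum, Pf4 alone held 39.2 FPKM in Srf KO and 2.68 FPKM in WT, while Ppbp and Gp1ba were not called. Macrophage markers (4 of 6) summed to 129 FPKM in Srf KO and 113 FPKM in WT, and eosinophil, basophil and mast cell markers (5 of 5) to 117 FPKM in Srf KO and 54.9 FPKM in WT. Of 5 tested neutrophil markers, 4 were called lower and 0 higher in the deposited table, and their summed level was 19573 FPKM in Srf KO and 30314 FPKM in WT. The log2 folds of the receptor genes Cxcr2 (-1.57 ± 0.19, SE) and Csf3r (-1.47 ± 0.22, SE) and of the granule protease genes Mmp8 (-1.19 ± 0.22, SE) and Mmp9 (-0.94 ± 0.23, SE) in the deposited table were further below 0 than that of any tested subunit. Retnlg (-0.54 ± 0.27, SE) was not called there, and it held most of the neutrophil sum, at 17117 FPKM in Srf KO and 24805 FPKM in WT. The part of the other cell types and of the neutrophil marker levels in the subunit values was not tested.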

How the data were processed

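Sequencing libraries of mature bone marrow neutrophils, 2 from Srf KO and 2 from WT mice, were prepared, per the labels' protocols, with a kit (TruSeq RNA v2) that does not mark the strand. CASAVA 1.8.1, TopHat2 2.0.0, Cufflinks 2.0.0 and mm10 are named per the submitters' processing notes, and their settings are not given in the sources used here. The authors deposited tables of genes, isoforms, transcription start groups and coding sequences, with 1 FPKM value per genotype per the file headers. Per the file headers the deposited log2 fold sets WT over KO. It is printed here with the opposite sign. The authors also deposited a test statistic, which is a score, with its p-value and its q-value. In all 4 tables the q-value was checked to be the Benjamini-Hochberg adjustment over tested features. A test on per-sample counts was planned, but the deposited tables hold no per-sample values. The authors' test is therefore the main result, and depth is unknown.

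The members and gene lists were chosen with earlier results of these data known, and 1 list is not reported here. Named genes were Srf, all members, member isoforms at 1 FPKM or more, and up to 4 called genes per list with the largest absolute fold at 1 FPKM or more. Others, such as Gmfg, Cttn, Nckap1, Jmy, Spire1, Ttll3 and the markers, were named after their values were seen. Starts are printed counting from 1. The implied standard error is the fold over the statistic. Trends were running medians over 50 bins, smoothed over 5, with transcript length from GENCODE M21 for 97.7% of genes. P-values were then recomputed with the same errors and adjusted over all tested genes. This step was tested on simulated data. Alternatives were thresholds of 0.01 and 0.10, a 1.5-fold minimum, a filter at 1 FPKM, a pseudocount of 1, centring, both trends and the isoform tables. The tools were BLAST 2.17.0 and Python 3.11.15 with Biopython 1.88, scipy 1.17.1, pandas 2.3.3, numpy 2.4.6 and matplotlib 3.10.9.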

Additional observations from a re-analysis of the deposited data

How the results depend on the processing

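The tables hold 1 value per genotype, so leaving out a sample was not run. No paired analysis was possible because the columns carry no sample. The median fold of the tested members kept its sign under every alternative run. It ranged from -0.56 with the trend on transcript length subtracted to -0.28 with the trend on mean FPKM subtracted. At an adjusted p of at most 0.01, and also with a 1.5-fold minimum, the members called lower were 1 of 8 (Arpc1b), against 13.1% and 14.8% of all tested genes, and those called higher 0. With the trend on mean FPKM subtracted, 2 of 8 were called lower, against 17.5% of all tested genes. Actr2 and Arpc5 lost their calls there (log2 folds -0.42 and -0.38). With the trend on transcript length subtracted, 5 of 8 were called lower, against 17.8% of all tested genes. Arpc3 gained a call there, and 0 were called higher. The Arpc1b minus Arpc1a difference was then -0.42 on the log2 scale. With the most abundant isoform, added after seeing the data, Arpc4 was called and Arpc5 was not. With a filter at 1 FPKM, genes called higher fell to 0 among the WAVE complex, the WASH, WHAMM and JMY activators, the branch stabilisers and the formins. Those genes, Nckap1, Jmy, Cttn and Spire1, were below 1 FPKM in both genotypes, so the filter removed them. The causes of the other changes were not tested. The differences between Arpc5l and Arpc5 excluded 0 under every alternative run. Precision is limited by the implied standard error, between 0.185 and 0.204 for the tested members.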
